A study of Mus musculus with 15 samples.

Results

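The genes of the potassium channels were followed in the hearts of mice that had received methamphetamine (meth) or phosphate-buffered saline (PBS). A gene was taken as a member when the accession of a probe matched a RefSeq symbol made of Kcn, at least 1 further letter and a number. This naming rule covers pore subunits, their beta and accessory subunits, and some non-coding transcripts named after them, and it used no measured value. It found 86 genes on 120 probes, out of 18350 named genes and 41174 probes on the array. Of these 86 genes, 56 had a signal well above background on 3 or more arrays and were tested, against 14220 genes tested in the whole series.

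All animals were C57BL/6 mice, 8 to 10 weeks old at the start, and each array carried RNA from the heart of 1 mouse after 5 months. Meth mice (4 males and 4 females) were injected intraperitoneally once a week with methamphetamine hydrochloride, raised by 2 mg/kg each week to 40 mg/kg at week 20. PBS mice (4 males and 3 females) were given PBS over the same weeks. The males of either treatment came from 2 trials, with 2 mice from each, and the females from 1 trial according to their titles, although another label assigns 3 of them (meth replicates 3 and 4 and PBS replicate 3) to a second trial. Many of the meth males died during the treatment, so the male meth arrays describe survivors. The labels name the tissue only as heart, so atria, ventricles and attached tissue cannot be separated, and fewer cells of a type cannot be told apart from less RNA per cell.

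Potassium channels carry the outward currents that end the cardiac action potential and hold the resting potential. In the mouse ventricle the fast transient outward current Ito and the slowly inactivating IK,slow currents dominate repolarization, whereas the delayed rectifier currents IKr and IKs, which matter most in human hearts, are small in the adult mouse. The inward rectifier IK1 sets the resting potential, the ATP-sensitive channel links it to metabolism, and the acetylcholine-activated channel slows the atria and the sinus node under vagal tone.

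Values are normalized log2 intensities, that is the log2 of the background-subtracted signal minus the 75th percentile of that array, so 0 is a bright probe and values below about -5 lie near the background. A level can be compared between arrays but not between probes. A log2 fold change of 1 is a doubling. The arrays lay on 4 slides scanned in 3 sessions, and each slide held both treatments. Slides 1 and 2 held both sexes, slide 3 males and slide 4 females, so sex is partly confounded with slide. The share of probes well above background ran from 61.3% to 71.4% by array. The 12 cardiomyocyte markers averaged 7.67 to 8.07 over the arrays, so heart muscle transcripts were abundant in each library, with 7.67 to 7.86 in female PBS and 7.88 to 8.07 in male PBS hearts, which do not overlap. Other markers moved with the groups. The 8 measured airway epithelium markers averaged -0.64 to 1.21 on the male meth arrays against -4.45 to -4.30 on the male PBS arrays, with -3.55 to -3.15 on the female PBS and -3.23 to -2.31 on the female meth arrays, so male and female PBS hearts were also apart. The 4 measured white fat markers averaged 1.23 to 3.63 in male meth hearts against 0.45 to 2.16 in male PBS hearts, and 1.91 to 2.69 in female meth hearts against 0.81 to 1.33 in female PBS hearts. The 6 atrial markers averaged 4.10 to 4.70 in female PBS hearts and 4.60 to 5.71 in the other groups. The part of these other cells in the values below was not tested.

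Of the 56 measured members, 39 were well above background on all 15 arrays and 17 on 3 to 14. The measured set held the 4 genes of Ito, the 4 Kir2 genes of IK1, both genes of the ATP-sensitive channel and both of the acetylcholine-activated channel. Among the 30 that were not tested, 25 were never well above background, 4 were on 1 array and Kcnip4 was on 2 arrays. These 30 included Kcne2, the partner of the IKr pore, Kcnma1, the pore of the large-conductance calcium-activated channel of smooth muscle, and Kcnq5 of the vascular Kv7 channels. Just inside the limit, Kcnab3, Kcnk4 and Kcnk7 were well above background on 3 arrays each. A further 11 Kcn symbols had no matching probe and were not analysed here. Precision followed brightness. The standard error of the male meth response had a median of 0.10 for the 16 members with a mean level of 0 or more and 0.23 for the 27 members with a mean level below -3.

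The first comparison asked whether chronic meth altered the potassium channel genes of each sex. In males none of the 56 members passed an adjusted p of 0.05 (limma over all 28358 probes tested, Benjamini-Hochberg), where 1.34% of all 14220 genes did. In females none passed either, beside 0.443% of all genes. At an unadjusted p under 0.05 there were 8 members in males and 9 in females, or 14.3% and 16.1%, against 13.2% and 7.82% of all genes. The median log2 fold change of the members was 0.01 in males and 0.01 in females, against -0.02 and 0.03 for all genes. The difference between the male and female responses also passed for no member, beside 0.155% of all genes, and 6 members (10.7%) had an unadjusted p under 0.05 against 8.12% of all genes. The 95% confidence intervals below give the size of change that each gene's data still allow.

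The member that stood lowest after meth in males was Kcna1, which encodes the pore subunit Kv1.1, best known from axons and also present in heart. In the male PBS hearts its levels were 0.18, 0.21, 0.62 and 0.54. In the male meth hearts they were -0.21, -0.06, -0.64 and -0.37, so every meth heart lay below every PBS heart. The female PBS hearts had 0.52, 0.41 and 0.01 and the female meth hearts -0.05, 0.00, -0.18 and -0.56, again without overlap, although the lowest PBS heart and the highest meth heart were nearly equal. The log2 fold change was -0.70 ± 0.17 (SE) in males (limma adjusted p = 0.0851) and -0.51 ± 0.19 in females (limma adjusted p = 0.292). The male value reached limma adjusted p = 0.0454 with slides and 0.0291 with scan sessions as a fixed block term. Within the male trials it was -0.33 in trial 1 and -1.08 in trial 2. In females it was -0.49 on slides 1 and 2 and -0.38 on slide 4.

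Averaged over both sexes, a comparison added after these values were seen, Kcna1 fell by 0.61 on the log2 scale (95% confidence interval -0.88 to -0.33, limma adjusted p = 0.0272), a level 0.657 times that of PBS hearts. It was the only one of the 56 members to pass in that average, where 2.23% of all genes passed. The call was lost under 10 of 28 alternatives, 5 of them with 1 heart left out (female PBS replicates 1 and 2, male PBS trial 2 replicates 1 and 2 and male meth trial 2 replicate 2, limma adjusted p = 0.0563 to 0.0759), and others including the replicate number as a block (-0.55, limma adjusted p = 0.0821) and the trial 1 arrays alone (-0.42, limma adjusted p = 0.263). Kcna1 was also the only member below PBS without overlap in each sex, which holds for 0.401% of all genes. No member was above PBS without overlap in each sex, beside 0.633% of all genes. In single sexes, meth and PBS hearts did not overlap for 5 members in males and 9 in females, or 8.93% and 16.1%, beside 11.6% and 7.01% of all genes.

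**Figure D1:**
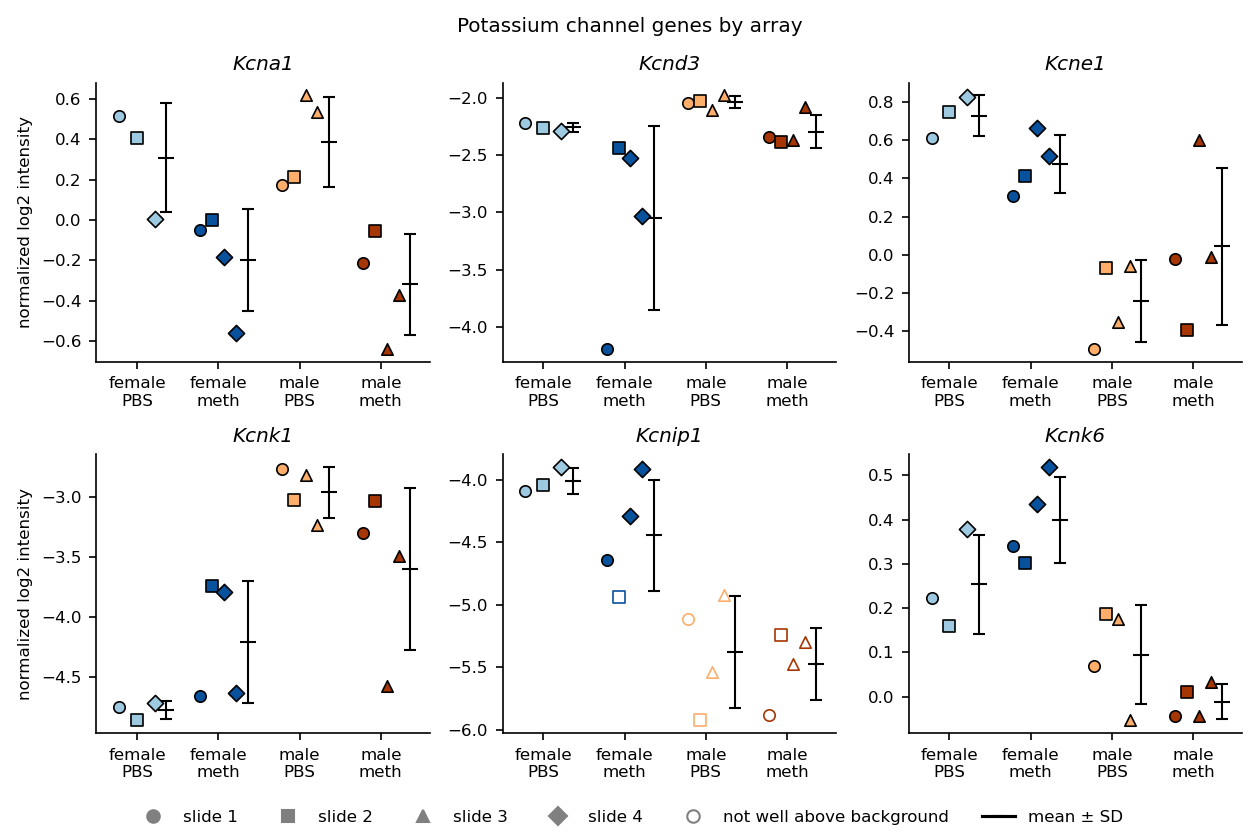
Normalized log2 intensity of 6 potassium channel genes on the 15 arrays, by group, with the slide as the symbol, open symbols where the probe was not well above background, and the mean ± SD (n = 3 for female PBS and 4 for the others). Kcna1 lay lower in meth than in PBS hearts of each sex, and 1 female meth heart stood far below the others for Kcnd3. Males and females did not overlap for Kcne1 and Kcnk1 in PBS hearts only, for Kcnk6 in meth hearts only, and for Kcnip1 in both.

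The genes of Ito, whose pores are Kcnd2 (Kv4.2), Kcnd3 (Kv4.3) and Kcna4 (Kv1.4) and whose accessory subunit is Kcnip2 (KChIP2), did not pass in either sex. Kcnd2 had a male log2 fold change of -0.04 with a 95% interval of -0.36 to 0.28 and a female one of -0.05 (-0.40 to 0.29). Kcna4 had -0.01 (-0.45 to 0.43) in males and -0.11 (-0.58 to 0.36) in females. Kcnip2 had 0.21 (0.01 to 0.41) in males, at limma adjusted p = 0.368, and -0.02 (-0.24 to 0.20) in females.

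Kcnd3 was the exception among the Ito genes in its spread. Its levels were -2.22, -2.26 and -2.29 in the female PBS hearts and -4.19, -2.44, -2.53 and -3.04 in the female meth hearts. All female meth hearts therefore lay below the female PBS hearts, with the heart of replicate 1 far below the rest. The male PBS hearts had -2.05, -2.03, -2.10 and -1.98 and the male meth hearts -2.34, -2.39, -2.37 and -2.08, where only the last meth value reached into the PBS range. The log2 fold change was -0.79 ± 0.31 in females (limma adjusted p = 0.347) and -0.26 ± 0.29 in males (limma adjusted p = 0.774). Without female meth replicate 1 the female value was -0.41 ± 0.14 (limma adjusted p = 0.239), so that single heart carried much of its size.

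Kcna5 (Kv1.5) is a pore of IK,slow. It had a log2 fold change of -0.13 (95% interval -0.58 to 0.32) in males and -0.37 (-0.86 to 0.12) in females and did not pass. The female interval still allows a level of 0.55 times that of PBS hearts.

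Among the genes of IKr and IKs, the pores Kcnh2 (ERG1) and Kcnq1 (KvLQT1) moved little. Kcnh2 had 0.16 (-0.05 to 0.37) in males and 0.02 (-0.21 to 0.25) in females, and Kcnq1 had 0.10 (-0.11 to 0.32) and 0.05 (-0.18 to 0.28). The accessory Kcne subunits, small membrane proteins that alter the gating and density of several Kv pores, had larger male estimates that did not pass. Kcne4 had 0.49 ± 0.18 in males (limma adjusted p = 0.279), with all 4 meth hearts above the PBS hearts, and 0.10 ± 0.20 in females. Kcne3 had 0.44 ± 0.15 in males (limma adjusted p = 0.244) and 0.26 ± 0.17 in females, and its second probe gave 0.53 and 0.39. All 5 measured genes of this group had a positive male estimate, and 4 of 5 a positive female one, beside 30 of the 56 members in each sex. Kcne1 was the female exception, with -0.25 in females and 0.29 in males, and it passed in neither.

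Among the inward rectifiers, Kcnj2 (Kir2.1), the main IK1 pore of the ventricle, had -0.02 (95% interval -0.22 to 0.19) in males and -0.22 ± 0.10 in females (limma adjusted p = 0.442). Kcnj12 (Kir2.2) had -0.04 (-0.22 to 0.14) and 0.01 (-0.18 to 0.20). Of the 2 pores of the ATP-sensitive channel, Kcnj11 (Kir6.2) had -0.02 (-0.29 to 0.24) and 0.04 (-0.25 to 0.32), and Kcnj8 (Kir6.1) had -0.01 (-0.14 to 0.12) and -0.14 (-0.27 to 0.00). Kcnj3 and Kcnj5, which together form the acetylcholine-activated channel, had 0.02 and 0.07 in males and 0.29 and 0.00 in females, and none passed. A change of 1.5-fold or more in either direction lay outside the male interval of each of the 6 genes.

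Two-pore (K2P) channels carry background current. Kcnk3 (TASK-1) had -0.03 (95% interval -0.28 to 0.22) in males and -0.03 (-0.29 to 0.24) in females. Kcnk1 (TWIK-1) had -0.64 ± 0.27 in males (limma adjusted p = 0.352) and 0.57 ± 0.30 in females (limma adjusted p = 0.524), with opposite signs. The difference between the sexes was -1.20 ± 0.40 (limma adjusted p = 0.453) and did not pass. Among the calcium-activated channels, Kcnn2 (SK2) had 0.00 in males and 0.16 in females, and Kcnn4 (SK4), better known from blood cells and epithelia, had 0.42 in each sex (limma adjusted p = 0.298 and 0.401).

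The 5 largest male estimates belonged to Kcna1, Kcnk1, Kcnh6 (0.61), Kcnc2 (0.53) and Kcne4. The 5 largest female ones, as measured, belonged to Kcnab3, Kcnd3, Kcns3 (0.75), Kcnc1 (0.62) and Kcnh4 (0.61). Kcns3, a silent subunit that modifies other Kv channels, had female meth hearts above all female PBS hearts (limma adjusted p = 0.187). Kcnab3 was well above background on no female meth array and on only 2 of 3 female PBS arrays, so its place in that order is not settled. A bound puts its female PBS level 1.35-fold higher, but that bound includes the undetected PBS array. The difference did not pass (limma adjusted p = 0.347), so a higher level is not established. Kcnab3, Kcnc1, Kcnh4 and Kcnh6 were dim, well above background on 3, 5, 6 and 9 arrays. Kcnq1ot1, the non-coding antisense RNA of the Kcnq1 locus, was singled out after its values were seen. In males its brightest probe had -0.32 ± 0.10 (limma adjusted p = 0.18) with no overlap, in females -0.26 ± 0.11, and its other 3 measured probes ranged from -0.14 to 0.24 in males, so the probes disagree.

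**Figure D2:**
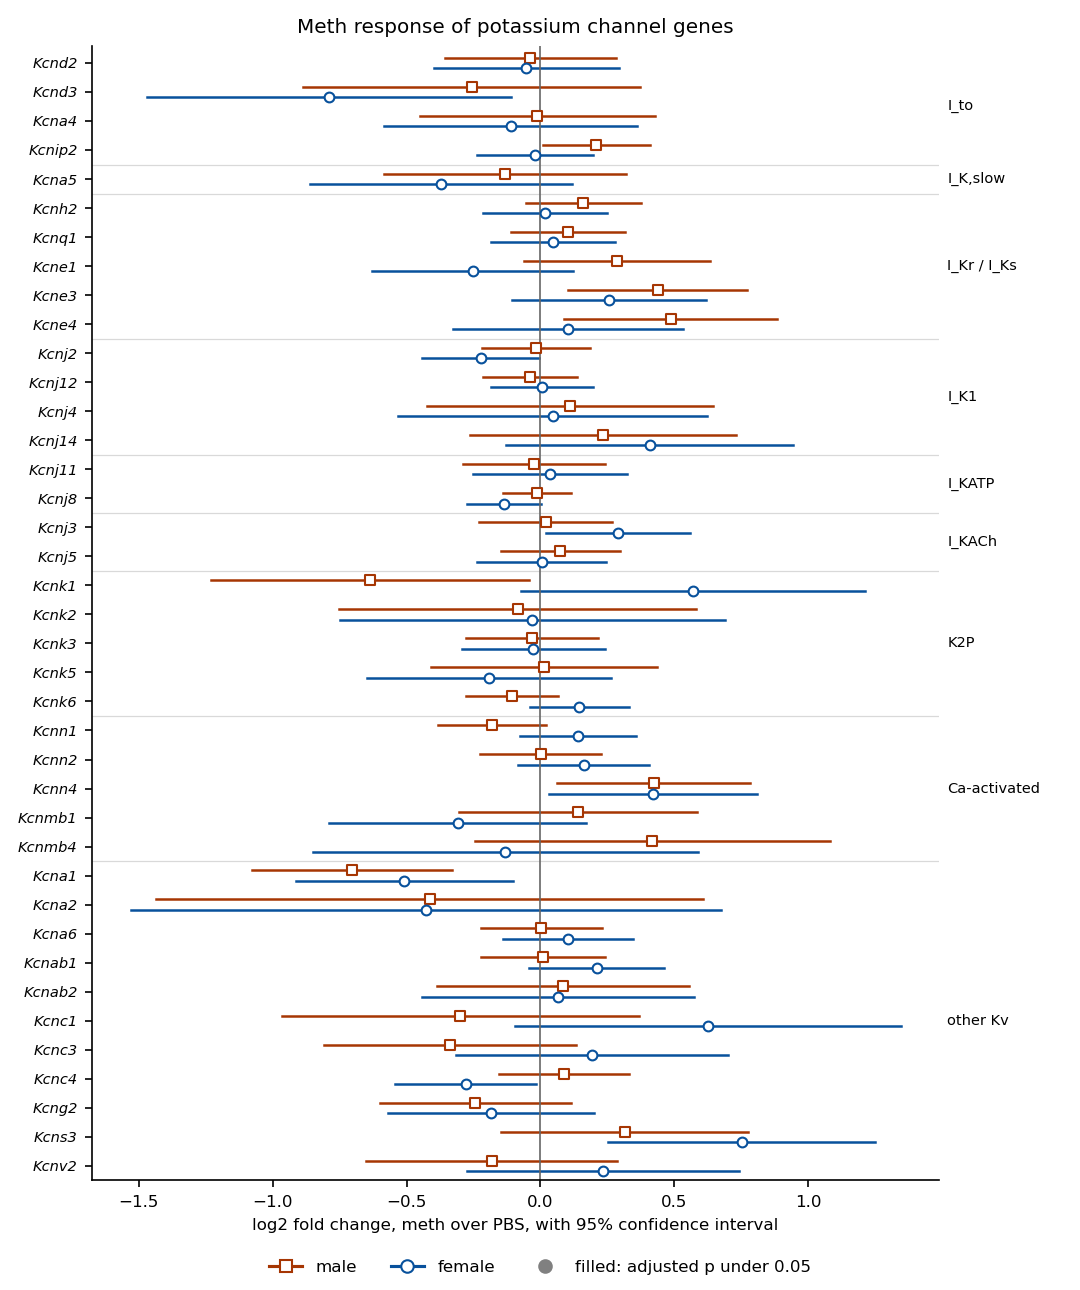
Log2 fold change of meth over PBS, with its 95% confidence interval from limma, for measured members grouped by current, in males (squares) and females (circles). No symbol is filled, since none had an adjusted p under 0.05, and the intervals of Kcnj2, Kcnj12, Kcnj11 and Kcnj8 are narrow around 0 in males.

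The second comparison set male against female hearts within each treatment. The fit held a trial term, and by their titles only males came from 2 trials. Male estimates were therefore set to the level of trial 1, using male hearts of both treatments. They can differ from the gap between the group means. In PBS hearts Kcnk1 and Kcne1 passed, beside 0.549% of all genes, and in meth hearts Kcnk6 passed, beside 2.8% of all genes. Kcnip1 had an adjusted p under 0.05 in both, but it entered the 56 tested genes through female arrays alone, where it is high, so these calls are no independent test and nothing is read from its count. In the PBS comparison 16 members (28.6%) had an unadjusted p under 0.05 against 15.3% of all genes, and in the meth comparison 14 (25%) against 18.6%. Both counts include Kcnip1, so they are given as a description only. The cardiomyocyte and airway markers also lay apart between male and female PBS hearts. So did the dim thymus markers and, narrowly, the endothelium markers (2.40 to 2.55 in female PBS and 2.22 to 2.39 in male PBS hearts). In meth hearts the airway markers again lay apart. The smooth muscle markers did so narrowly (2.73 to 2.82 in female meth and 2.85 to 2.96 in male meth hearts). The part of these markers in the differences was not tested.

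Kcnk1 had the largest difference. Its levels were -4.75, -4.86 and -4.71 in the female PBS hearts and -2.77, -3.03, -2.82 and -3.23 in the male PBS hearts without overlap. The group means were -4.77 in female and -2.96 in male PBS hearts. With the trial term the log2 fold change of male over female was 2.06 ± 0.33 (limma adjusted p = 0.0174). This is a fitted 4.17-fold higher male level, with a 95% interval of 2.55 to 6.8. On slides 1 and 2, each with 1 male and 1 female PBS heart, the male value was higher by 1.99 and 1.83. In meth hearts the sexes drew closer and overlapped, the latter through 1 male heart, trial 2 replicate 1. The other male meth hearts lay above every female meth heart. The female meth hearts had -4.65, -3.74, -3.79 and -4.63 and the male meth hearts -3.30, -3.03, -4.57 and -3.49, for a log2 fold change of 0.85 ± 0.31 (limma adjusted p = 0.165). The test of that change is the difference between the sexes given above, which did not pass. With normexp background correction the PBS difference was 0.79 (limma adjusted p = 0.551), and it kept its sign under all 27 alternatives. Without male PBS trial 1 replicate 1, female PBS replicate 2 or female PBS replicate 3 its value stayed between 2.02 and 2.09 and its limma adjusted p rose to between 0.0565 and 0.0853, and without slide 4 it was 2.09 (limma adjusted p = 0.0671).

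The promoter window of Kcnk1, the member with the largest sex difference, is shown with a search for the sites of steroid hormone receptors and of clock proteins. RefSeq windows of 300 bases around the gene start were found for 41 of the 56 measured members, among them Kcnk1 and Kcnip1 of the 5 genes with an adjusted p under 0.05 in any comparison. The 250 bases before the start of Kcnk1 lie at chr8:125994852-125995101 on the + strand of GRCm38.p6, and capitals would mark a motif.

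Kcnk1 promoter: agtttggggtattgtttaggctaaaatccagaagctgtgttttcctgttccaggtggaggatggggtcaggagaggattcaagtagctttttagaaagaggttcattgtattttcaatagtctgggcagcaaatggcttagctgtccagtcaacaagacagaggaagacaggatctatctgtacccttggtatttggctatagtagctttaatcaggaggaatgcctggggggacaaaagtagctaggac

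No capitals appear, because none of 3 motifs searched on both strands was found in it. These were the half-site TGTTCT shared by the androgen and glucocorticoid receptors, present in 19% of all 32851 windows, the E-box CACGTG bound by the clock activators, present in 7.15%, and the D-box TTATGTAA bound by Dbp, Tef and Hlf, present in 0.938%. None of the 3 motifs contains another. The 3 windows of Kcnip1 held none of them either. Over the 58 windows of measured members the shares were 15.5% for the half-site, 12.1% for the E-box and 0 windows for the D-box. A window without these letters says nothing about sites elsewhere.

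Kcne1 (minK), the accessory subunit that turns Kcnq1 into the slow IKs channel, was lower in males. The female PBS hearts had 0.61, 0.75 and 0.83 and the male PBS hearts -0.49, -0.07, -0.35 and -0.06. All males lay below all females, with group means of 0.73 in females and -0.24 in males. With the trial term the log2 fold change was -1.12 ± 0.19 (limma adjusted p = 0.026), a fitted male level of 0.461 times the female one. In the trial 1 arrays alone it was -1.01 (limma adjusted p = 0.0596). The difference was -1.11 on slide 1 and -0.82 on slide 2. With slide as a block it was -1.05 and did not pass (limma adjusted p = 0.0514), nor did it without slide 4 (-1.07, limma adjusted p = 0.0971). The call was lost under 9 of 27 alternatives, among them the omission of male PBS trial 1 replicate 1 or of any 1 female PBS heart (limma adjusted p = 0.052 to 0.144, at values of -1.18 to -1.05). In meth hearts the females had 0.31, 0.41, 0.66 and 0.52 and the males -0.02, -0.39, 0.60 and -0.01, where 1 male heart of trial 2 lay inside the female range. There the log2 fold change was -0.58 ± 0.18 (limma adjusted p = 0.112), and it passed without that male heart (-0.66, limma adjusted p = 0.0389). Kcnq1 itself did not pass between the sexes, with 0.03 (95% interval -0.22 to 0.28) in PBS hearts. Kcne3 went the same way as Kcne1 in PBS hearts without passing (-0.48 ± 0.18, limma adjusted p = 0.251).

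Kcnip1 (KChIP1), a calcium-binding partner of Kv4 channels known mainly from neurons, was dim. It was well above background on 3 of 3 female PBS arrays and 3 of 4 female meth arrays, and on no male array. The female PBS hearts had -4.09, -4.04 and -3.89 and the male PBS hearts -5.12, -5.93, -5.54 and -4.92. Because the male values are only bounds, the female PBS level was at least 1.97-fold higher and the female meth level at least 1.63-fold higher, given as a description with no p, since the filter kept this gene for its female values. In these bounds each male array counts at its lowest signal well above background or at its own value, whichever is higher. Each female array counts at its own value, also the female meth array that was not well above background.

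Kcnk6 (TWIK-2), a background channel of vessel walls and other tissues, was lower in males after meth. The female meth hearts had 0.34, 0.30, 0.44 and 0.52 and the male meth hearts -0.04, 0.01, -0.04 and 0.03, with a narrow spread in each group and no overlap. The log2 fold change was -0.40 ± 0.09 (limma adjusted p = 0.0355), a male level of 0.76 times the female one. In PBS hearts the females had 0.22, 0.16 and 0.38 and the males 0.07, 0.19, 0.17 and -0.05, which overlapped, at -0.14 ± 0.09 (limma adjusted p = 0.479). The male response minus the female response was -0.25 ± 0.12 (limma adjusted p = 0.576), so the meth hearts were not shown to differ more than the PBS hearts. The meth difference was -0.39 on slide 1 and -0.29 on slide 2, and the call held under 14 of 27 alternatives. It was lost with slide as a block (-0.31, limma adjusted p = 0.0581).

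Other members, several of them repolarization genes, had estimates apart between the sexes without passing. Kcnd3 did not overlap between males and females in either treatment, and Kcnh2, Kcnj2 and Kcnj5 did not overlap in meth hearts. The share of all genes without overlap between the sexes was not counted. Kcnj14 (Kir2.4) was 0.93 ± 0.27 higher in male PBS hearts (limma adjusted p = 0.158) with no overlap, and 0.75 ± 0.26 in meth hearts. Without male meth trial 1 replicate 1 it passed in PBS (1.07, limma adjusted p = 0.0298) and in meth hearts (1.18, limma adjusted p = 0.0134). That meth heart enters the PBS comparison only through the trial term and the shared estimate of spread. Kcnn2 was 0.47 ± 0.12 higher in male PBS hearts (limma adjusted p = 0.119) with no overlap, and its second probe gave 0.21. The Ito pore Kcnd2 had 0.43 ± 0.17 in PBS and 0.44 ± 0.16 in meth hearts (limma adjusted p = 0.278 and 0.18). The sexes overlapped for Kcnd2 in each treatment, and its second probe gave 0.10 in PBS hearts. Kcnq1, Kcnj12, Kcnj11 and Kcnj8 had PBS estimates between -0.10 and 0.03. For Kcnj8 the 95% interval was -0.19 to 0.12.

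**Figure D3:**
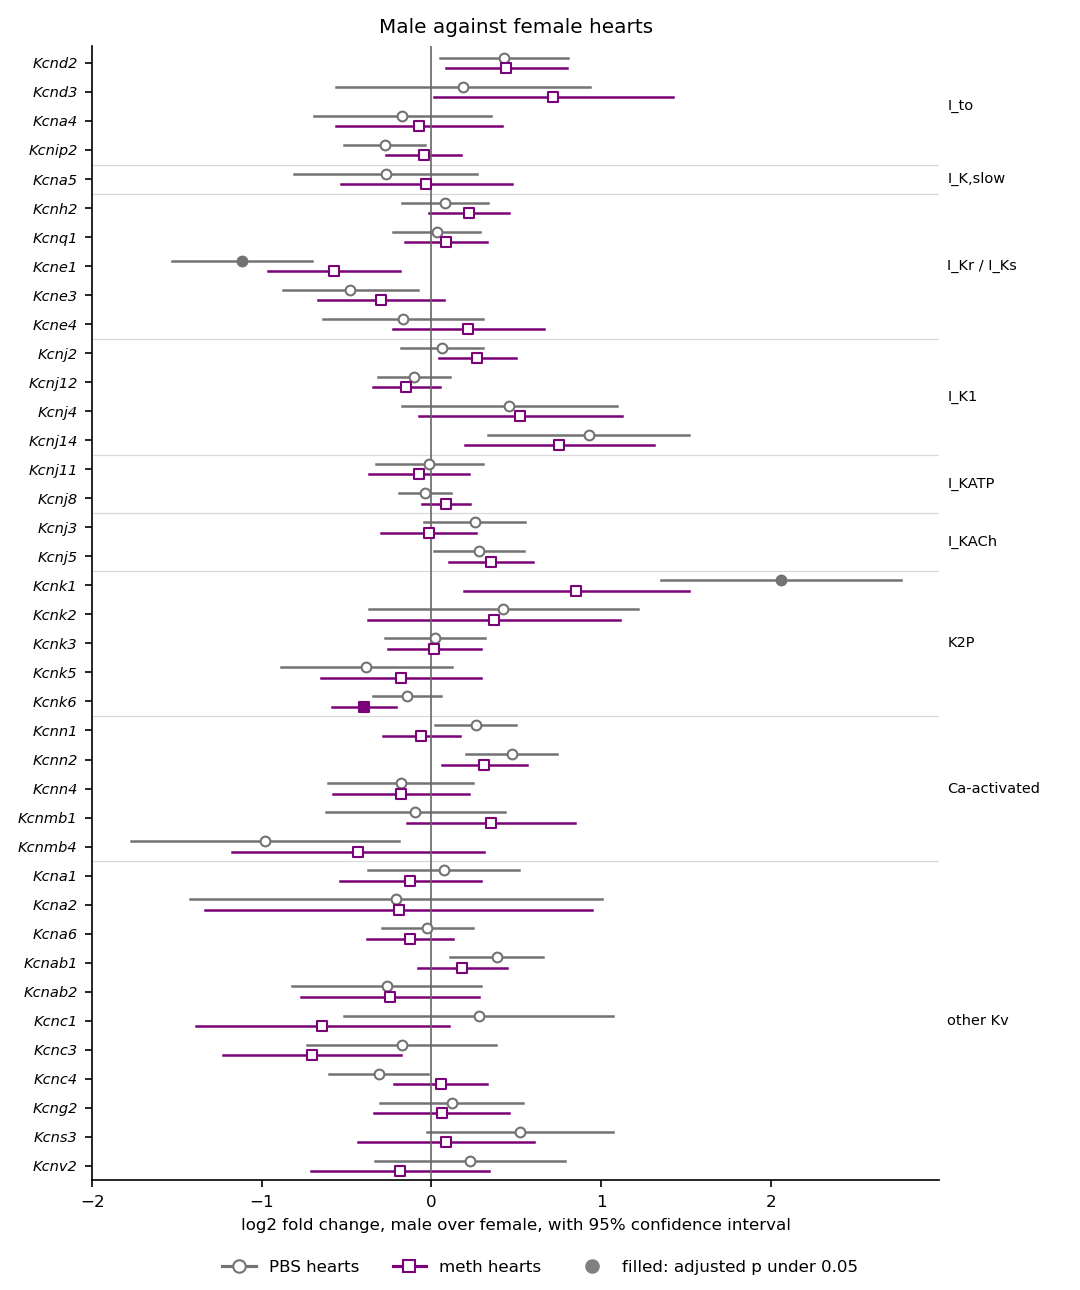
Log2 fold change of male over female with its 95% confidence interval from limma, for measured members grouped by current, in PBS hearts (circles) and meth hearts (squares). Filled symbols, with an adjusted p under 0.05, are Kcnk1 and Kcne1 in PBS hearts and Kcnk6 in meth hearts.

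Of the genes that act with these channels, 1 list held sodium and calcium channels, the sulfonylurea receptors, the sodium-calcium exchanger and regulators of channel genes, with 21 genes measured. None of them passed in males or in females, with median log2 fold changes of -0.03 and 0.01. At an unadjusted p under 0.05 there were 5 in males and 2 in females. In the average over both sexes the sodium-calcium exchanger Slc8a1 passed at -0.41 ± 0.09 (limma adjusted p = 0.0368).

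The circadian clock is known to drive some cardiac potassium channel genes through the regulator Klf15. Of 15 measured clock genes 9 passed in males, 8 higher and 1 lower after meth, and 3 passed in females, 2 higher and 1 lower. Per2 was 1.97 ± 0.24 higher in males and 2.04 ± 0.26 higher in females (limma adjusted p = 0.00187 and 0.00695), and Arntl fell by 2.40 and 1.81. Klf15 had 0.29 ± 0.13 in males and 0.29 ± 0.14 in females and did not pass (limma adjusted p = 0.377 and 0.483). Kcnip2, the channel gene best known as a target of Klf15, had the male and female values of 0.21 and -0.02 given above, which did not pass. The hour of collection is not given in the sources used here.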

How the data were processed

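Per the labels, heart RNA of 15 mice was labelled with Cy3 and hybridised to Agilent 1-colour mouse arrays. The authors extracted spots with Feature Extraction (9.1 in the submitters' notes), and the deposited intensities are background-subtracted and not normalized between arrays. The deposited table of log2 values equals these signals plus a constant per array and served as an alternative.

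Control spots were left out, outlier spots set to missing, log2 signals averaged per probe and each array shifted by its 75th percentile. Symbols came from RefSeq accessions (26918 probes). A gene is given by its tested probe of highest mean signal. The 28358 probes with a signal well above background on 3 or more arrays entered 1 limma 3.58.1 fit (R 4.3.3) with 4 groups and trial. P-values are two-sided. With 15 arrays, their number limits the precision. The labels give 1 mouse an array but no litters or cages. Named genes were the members of the lists of currents, any member that passed, and the 5 largest estimates of each meth comparison. Values of some genes are not reported here. The members and lists were chosen with earlier results of these data known. Marker lists also included smooth muscle, endothelium, fibroblast, nerve, cartilage, thymus, thyroid, skeletal muscle, brown fat and leukocytes, whose mean levels are in the closing section. The fit was tested on simulated data: of 200 probes given a log2 change of 1, the male contrast recovered 78% and the female contrast 76.5%, over 28358 probes. The simulated noise was independent between arrays, without slide or trial effects, and recovery was not split by brightness. A log2 change of 1 is also larger than the male or female meth estimate of any member.

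Same-numbered meth and PBS arrays deviated together from their group means (correlations 0.26 to 0.40 in males and 0.30 to 0.66 in females). Arrays of the same sex, trial and number also shared a slide, so these correlations cannot separate pairing from slide or trial. Within the male trials the correlations were -0.09 and 0.01, so pairing by number was not shown.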

Additional observations from a re-analysis of the deposited data

Results flagged for a closer look

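In a group of 4 hearts, a value was singled out when the gap between it and the nearest other heart took up more of the group's range than Dixon's criterion allows. Among 164 groups of 4 examined over the measured members, 9 held such a value, and chance gives about 1 in 20 groups.

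Of bright genes, Kcnd2 stood at 1.55 in male meth trial 2 replicate 1 (the others at 1.98 to 2.03) and Kcnn2 at 0.75 in the same heart (1.16 to 1.23). Of intermediate brightness, Kcnd3 stood at -2.08 in male meth trial 2 replicate 2 (-2.39 to -2.34). Of dim genes, Kcna2 stood at -7.19 in male meth trial 1 replicate 2 (-4.81 to -4.45), Kcnc1 at -6.55 in male meth trial 1 replicate 1 (-5.31 to -5.12) and Kcnk7 at -3.16 in male meth trial 2 replicate 2 (-7.21 to -6.85). Kcnj10 stood at -5.90 in male PBS trial 1 replicate 2 (-4.85 to -4.65) and at -5.02 in male meth trial 1 replicate 1 (-5.34 to -5.29), and Kcnk5 at -5.49 in female meth replicate 3 (-4.82 to -4.73). The low Kcnd3 value of female meth replicate 1 (-4.19) missed the criterion because the other 3 hearts were also spread.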

How the results depend on the processing

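No result reversed under any alternative. The number of members that passed in male PBS against female PBS hearts (3 with Kcnip1) became 2 with quantile normalization and with the filter on all 15 arrays, where Kcnip1 was lost or not tested, 0 with normexp background correction, 1 with no filter on dim probes, 1 with slide as a block, 1 with the trial 1 arrays alone and 0 without slide 4, and 0 to 3 when a heart was left out. It was 0 without male PBS trial 1 replicate 1, female PBS replicate 2 or female PBS replicate 3, and 1 without female PBS replicate 1. In meth hearts the count of 2 (with Kcnip1) became 0 with normexp, no filter, slide as a block, the trial 1 arrays alone or without slide 4, 1 with the filter on all 15 arrays or scan session as a block, 5 with the trial of the other label, and 0 to 2 when a heart was left out, where only the omission of female meth replicate 2 kept the count at 2. Male members called after meth went from 0 to 1 (Kcna1) with slide or scan session as a block. In the average over both sexes the count of 1 became 0 with normexp, no filter, the replicate block and the trial 1 arrays alone, 2 with the filter on all 15 arrays, slide or scan session as a block, and 0 to 2 when a heart was left out (2 without female PBS replicate 3). The female response and the difference between the sexes stayed at 0 throughout. The replicate block changed no other call, and it could not be fitted between the sexes, since numbers lie within a sex. By the methods' t-test, paired or unpaired, 9 members (16.1%) in males and 4 (7.14%) or 5 (8.93%) in females had a p under the threshold, against 15.2% or 13.3% and 9.93% or 8.29% of all probes, and none after Benjamini-Hochberg. Over single members 73 calls were lost and 13 gained in 9530 refits. Dim members are limited by their signal over background.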

Other observations

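The remaining marker lists, as mean normalized log2 intensity by array, ranged over 2.59 to 3.09 for smooth muscle, 2.22 to 2.55 for endothelium, 3.83 to 4.60 for fibroblasts, -2.30 to -1.70 for nerve and Schwann cells, -1.99 to -0.83 for tracheal cartilage, -5.07 to -3.70 for thymus, -4.56 to -2.21 for thyroid, 0.35 to 0.81 for skeletal muscle, 0.37 to 2.91 for brown fat and -1.96 to -1.22 for leukocytes.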
